A study of Homo sapiens with 4 samples.

Results

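High-MT cells are the cells in which mitochondrially encoded genes (the MT- genes) took more than 25% of all counts while at least 500 genes were detected. They were selected on that share, so the share itself and the total counts of a cell describe the selection and were not tested. The rule took 69 of the 1287 cells of the series. The 25% limit was set for the present comparison and is not one that the sample labels state. The other 1197 cells with at least 500 genes and 25% or less, called the rest, served as the reference within each library. A further 21 cells had under 500 genes and stayed out of both classes, 1 of them with over 25%.

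All cells came from CHP134, an established human neuroblastoma line labelled as coming from a tumour of the left adrenal gland, and were profiled by full-length single-cell RNA sequencing in nanowells. The 4 libraries, each the only one of its treatment, had been exposed for 24 h to 13cRA (13-cis retinoic acid, isotretinoin) at 5 µM, to doxazosin at 10 µM, to the combination of both, or to 0.04% DMSO as the vehicle. Per the labels' protocols, the 4 suspensions were stained with a live/dead dye and dispensed on 1 chip, and wells were picked by imaging for single live cells. High-MT cells therefore come from wells that had been scored as live. Treatments have no replicate here, and a difference between libraries cannot be told apart from a difference between suspensions.

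Mitochondria carry their own genome, which encodes ribosomal RNAs, transfer RNAs and core subunits of the respiratory chain, while the remaining subunits of the chain come from the nucleus. Transcripts of the mitochondrial genome stay inside the organelle, cytosolic mRNAs lie outside it, and some long noncoding RNAs such as MALAT1, a component of nuclear speckles, and NEAT1, the scaffold of paraspeckles, stay in the nucleus. Single-cell studies commonly use the mitochondrially encoded share as a quality measure and leave out cells above a limit. Cell types with many active mitochondria can also lie high on this measure.

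High-MT cells made up 8.36% of cells with at least 500 genes in the 13cRA library (29 of 347; exact 95% binomial interval 5.67 to 11.8%), 2.85% in the doxazosin library (7 of 246; 1.15 to 5.78%), 5.28% in the combination library (16 of 303; 3.05 to 8.43%) and 4.59% in the DMSO library (17 of 370; 2.7 to 7.25%). The share was highest with 13cRA and lowest with doxazosin, and at this limit the interval of each treated library overlapped that of DMSO. These intervals cover counting error only, and with 1 library per treatment no test between treatments was possible.

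**Figure D1:**
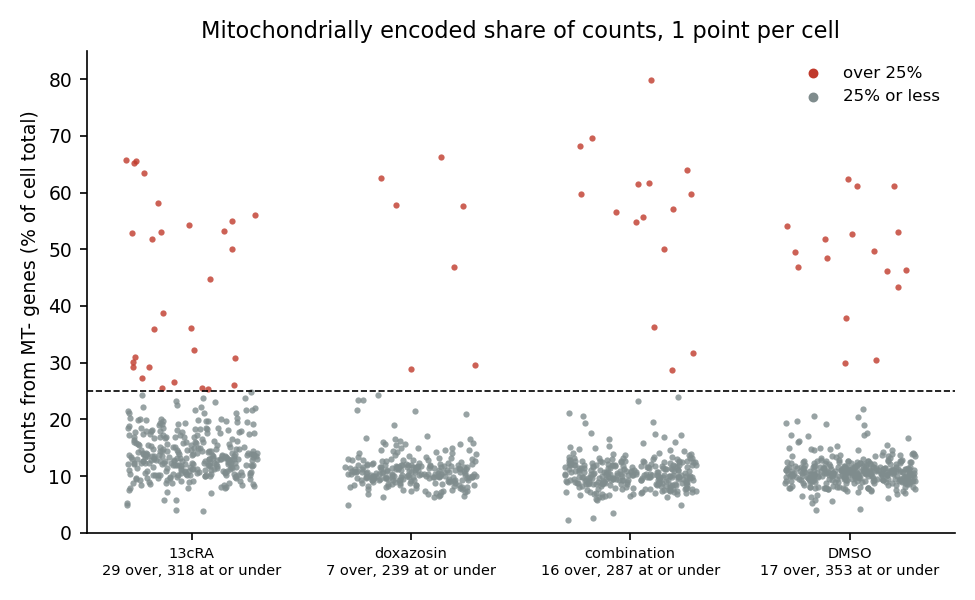
Share of each cell's counts that came from MT- genes (y axis, percent), 1 point per cell, in the 4 libraries; red points are cells over 25% and grey points are cells at 25% or less, with the limit as a dashed line. High-MT cells reached 79.8%, and the 13cRA library has cells on both sides of the limit with no gap between them.

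In the 13cRA library the cells ran on across the limit. The 4 high-MT cells nearest to it had 25.4, 25.5, 25.6 and 26% and were all 13cRA cells, and the 4 cells just outside it had 24.8% (13cRA), 24.3% (doxazosin), 24.2% (13cRA) and 23.9% (combination). Among the rest, the median share was 13.2% in the 13cRA library, 10.6% in the doxazosin library, 10.1% in the combination library and 10.6% in the DMSO library. Cells between 15 and 25% made up 28.5% of the 13cRA library, against 8.13% of the doxazosin library, 4.95% of the combination library and 4.32% of the DMSO library. Cells between 25 and 50% were 4.90% of the 13cRA library, 1.22% of the doxazosin library, 0.990% of the combination library and 2.7% of the DMSO library, whereas cells over 50% were 3.46, 1.63, 4.29 and 1.89% in the same order of libraries. Above 50%, the combination library and not the 13cRA library had the highest share.

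The position of the limit and the choice of genes moved the 13cRA value. With a limit of 20%, high-MT cells were 14.7% of the 13cRA library, 5.28% of the doxazosin library, 6.60% of the combination library and 5.41% of the DMSO library. There the interval with 13cRA, 11.1 to 18.9%, lay above that with DMSO, 3.33 to 8.2%, again covering counting error only. With a limit of 30% the shares were 6.05, 2.03, 4.95 and 4.32% in the same order, with 13cRA still highest. With the 13 mitochondrial mRNAs alone in the numerator, they were 4.03% of the 13cRA library, 2.03% of the doxazosin library, 4.29% of the combination library and 3.51% of the DMSO library, so that the combination and not 13cRA was highest. The median share among high-MT cells was 38.7% in the 13cRA library, 57.7% in the doxazosin library, 58.4% in the combination library and 49.6% in the DMSO library. Cells over 50% were 12 of 29, 4 of 7, 13 of 16 and 7 of 17 of the high-MT cells in those libraries.

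High-MT cells had fewer nuclear counts per cell at the median than the rest of their library, and at equal depth these counts came from fewer genes. Median nuclear counts per cell were 41641 in high-MT cells against 50972 in the rest of the 13cRA library, 89075 against 153128 in the doxazosin library, 179634 against 197017 in the combination library, and 84451 against 111595 in the DMSO library. Total counts with MT- genes went the other way, with medians of 65792 against 59200, 193876 against 171793, 440842 against 221558 and 194358 against 122615 in the same order. Both totals are bound up with the rule and were not tested. To compare gene numbers at equal depth, the nuclear counts of each cell were thinned to 10000, which 66 high-MT cells and 1162 cells of the rest were deep enough for. The median number of nuclear genes in 10000 counts was then 1590 in high-MT cells against 2727 in the rest with 13cRA, 1606 against 3145 with doxazosin, 1573 against 3092 with the combination, and 1780 against 3094 with DMSO. Unthinned medians were 2827, 3094, 3244 and 3060 detected genes in high-MT cells against 4272, 6460, 6626 and 6023 in the rest.

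The deficit at equal depth averaged 1377 genes (SD 190 over 4 libraries) and went the same way in 4 of 4 libraries. The exact two-sided sign-flip test over the 4 library differences gave p = 0.125, the smallest value that 4 libraries allow. Of 66 high-MT cells deep enough to be thinned, 48 (72.7%) had under 2000 genes, against 52 of 1162 cells of the rest (4.48%); the 2000 was read off the plotted distribution and carries no test. Pooled over the libraries, the number was 5 of 17 among high-MT cells between 25 and 35%, and 43 of 49 above 35%. By library it was 2 of 11, 1 of 2, 2 of 2 and 0 of 2 between 25 and 35% with 13cRA, doxazosin, the combination and DMSO. Above 35% it was 15 of 17, 4 of 4, 12 of 14 and 12 of 14. Outside the 13cRA library the lower range thus holds only 2 cells a library.

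**Figure D2:**
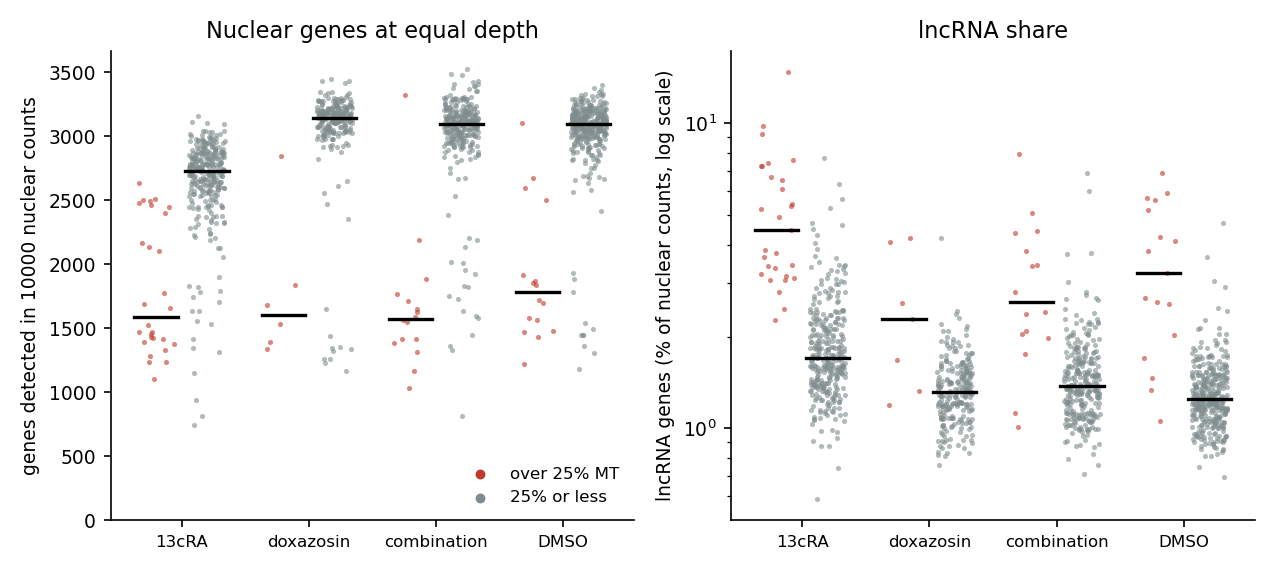
Nuclear genes detected in 10000 nuclear counts (left) and the share of nuclear counts in lncRNA genes in percent on a log scale (right), 1 point per cell, with high-MT cells in red left of the rest in grey for each library and black bars at the medians. The medians of high-MT cells lie between 1573 and 1780 genes, and those of the rest between 2727 and 3145.

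Long noncoding RNA genes took a larger part of the nuclear counts in high-MT cells. Their median share, by gene type in GENCODE 29, was 4.48% in high-MT cells against 1.70% in the rest with 13cRA, 2.28% against 1.32% with doxazosin, 2.60% against 1.38% with the combination and 3.24% against 1.25% with DMSO. The high-MT median was the higher one in 4 of 4 libraries, and all 29 high-MT cells of the 13cRA library lay above the median of their rest. MALAT1 alone took a median of 1.01% of nuclear counts in high-MT cells against 0.194% in the rest with 13cRA, 0.209% against 0.0937% with doxazosin, 0.706% against 0.102% with the combination and 0.684% against 0.0766% with DMSO. With MALAT1 left out, the lncRNA share was still higher in 4 of 4 libraries, at a mean of library medians of 2.19% in high-MT cells and 1.28% in the rest (exact sign-flip p = 0.125 for each of these measures). Protein-coding genes took a mean of library medians of 95.6% of nuclear counts in high-MT cells and 97.8% in the rest.

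In the rest, a low gene number came with a MALAT1 share above that of the library's other cells with 13cRA, and with shares near the library median in the other libraries. The 52 cells of the rest with under 2000 genes at equal depth had median MALAT1 shares of 0.386% with 13cRA (18 cells), 0.0961% with doxazosin (10 cells), 0.0920% with the combination (13 cells) and 0.0946% with DMSO (11 cells). In the doxazosin, combination and DMSO libraries those values lie near the median of all their rest, given above, and in the 13cRA library the value lies between the rest and the high-MT cells. Their median lncRNA share was above that of the rest in 4 of 4 libraries, at 3.195% against 1.70% with 13cRA, 1.89% against 1.32% with doxazosin, 1.77% against 1.38% with the combination and 1.53% against 1.25% with DMSO. The median mitochondrial share of these cells was 8.48 to 12.4% over the libraries.

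The counts within the mitochondrial genome were also made up differently. The large ribosomal RNA gene MT-RNR2 took 25.9, 37.0, 35.4 and 34.98% of MT- counts in high-MT cells of the 13cRA, doxazosin, combination and DMSO libraries, against 29.96, 42.3, 40.1 and 41.1% in the rest. The small ribosomal RNA gene MT-RNR1 took 3.96, 4.88, 3.76 and 4.55% in high-MT cells against 6.36, 6.47, 6.10 and 7.48% in the rest. Both ribosomal RNA genes were lower in high-MT cells in every library, and for MT-RNR1 the values of the classes did not overlap.

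Among the mRNAs, 9 of 13 had a larger share in high-MT cells in 4 of 4 libraries. The complex I subunit gene MT-ND4L took 4.45, 3.54, 3.22 and 3.69% of MT- counts in high-MT cells against 3.17, 2.35, 2.49 and 2.49% in the rest, a mean log2 ratio of 0.50. The cytochrome oxidase gene MT-CO2 took 15.6, 9.64, 11.2 and 11.3% in high-MT cells against 11.5, 8.55, 9.75 and 8.80% in the rest. The complex I genes MT-ND1 and MT-ND5 went the other way, with mean log2 ratios of −0.16 and −0.23 and lower shares in 4 of 4 libraries. Each of these genes had an exact sign-flip p of 0.125, which 4 libraries cannot go below. The shares of 1 library sum to its MT- total, so they are not independent of each other.

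Nuclear genes were then compared after the MT- counts had been taken out of the total. Counts were summed per library over the high-MT cells and over the rest, giving 8 sums, of 833084 to 3351860 nuclear counts for high-MT cells and 19541108 to 64784306 for the rest, and were scaled to nuclear CPM (counts per 1000000 nuclear counts). The edgeR quasi-likelihood test with the library as a block and Benjamini-Hochberg adjustment over the 6343 genes with a mean of at least 20 CPM called 5 genes higher (0.0788% of genes tested) and 1 gene lower (0.0158%) at an adjusted p under 0.05. At an unadjusted p under 0.05 there were 104 higher (1.64%) and 339 lower genes (5.34%), and DESeq2's Wald test on the same sums called 81 higher (1.28%) and 35 lower (0.552%). The 4 pairs differ in treatment, so the spread behind the test includes any difference between treatments.

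The bulk of genes sat below 0 in this contrast. The median log2 fold change of all 6343 genes was −0.54, and 26.8% of genes were above 0. The median was −0.96 for genes of 20 to 50 CPM, −0.42 for genes of 50 to 200 CPM, −0.18 for genes of 200 to 1000 CPM and −0.09 for the 108 genes above that. TMM factors moved the median of all genes to −0.26, DESeq2 size factors to −0.19, and a rest limited to cells with like numbers of detected genes to 0.07 over the same genes; that last setting was chosen after seeing the data and leaves 115, 6, 22 and 36 cells of the rest. The median of all genes is therefore given beside the list medians, and values relative to it are given for some of the named genes. A small negative value is not a lower level relative to the other genes.

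MALAT1 was the gene with the firmest difference. It stood at 24751, 12086, 10656 and 9285 CPM in high-MT cells of the 13cRA, doxazosin, combination and DMSO libraries, against 2699, 1232, 1387 and 1100 CPM in the rest. The classes did not overlap, and MALAT1 rose 8.74-fold in high-MT cells (log2 3.13 ± 0.10 SE, edgeR adjusted p = 8.66e-09, higher in 4 of 4 libraries). Over 20 alternative settings its log2 value ran from 2.40 to 3.49 and it was called in all of them, with a highest adjusted p of 0.000349. The difference was not that of a few cells in 3 of the libraries: 25 of 29, 14 of 16 and 15 of 17 high-MT cells lay above the median of the rest with 13cRA, the combination and DMSO. In the doxazosin library 5 of 7 did, and 1 cell gave 78.1% of the MALAT1 counts, without which the level there was 4513 CPM.

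NEAT1, the paraspeckle RNA, stood at 1760, 278, 864 and 626 CPM in high-MT cells against 346, 118, 160 and 111 CPM in the rest. It rose 4.39-fold (log2 2.14 ± 0.32 SE, edgeR adjusted p = 0.0352, higher in 4 of 4 libraries). In edgeR the call ended without the 13cRA library (adjusted p = 0.376), without the combination library (0.227), without DMSO (0.222), with pseudogene copies of mitochondrial genes removed (0.0575) and with a rest of like gene number (0.998). In the doxazosin library 1 cell gave 69.8% of its counts, and without that cell the level was 100 CPM, below that of the rest. NEAT1 was counted in 75.4% of high-MT cells against 85.5% of the rest. With 13cRA, doxazosin, the combination and DMSO, 19 of 29, 3 of 7, 9 of 16 and 11 of 17 high-MT cells lay above the median of their rest.

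**Figure D3:**
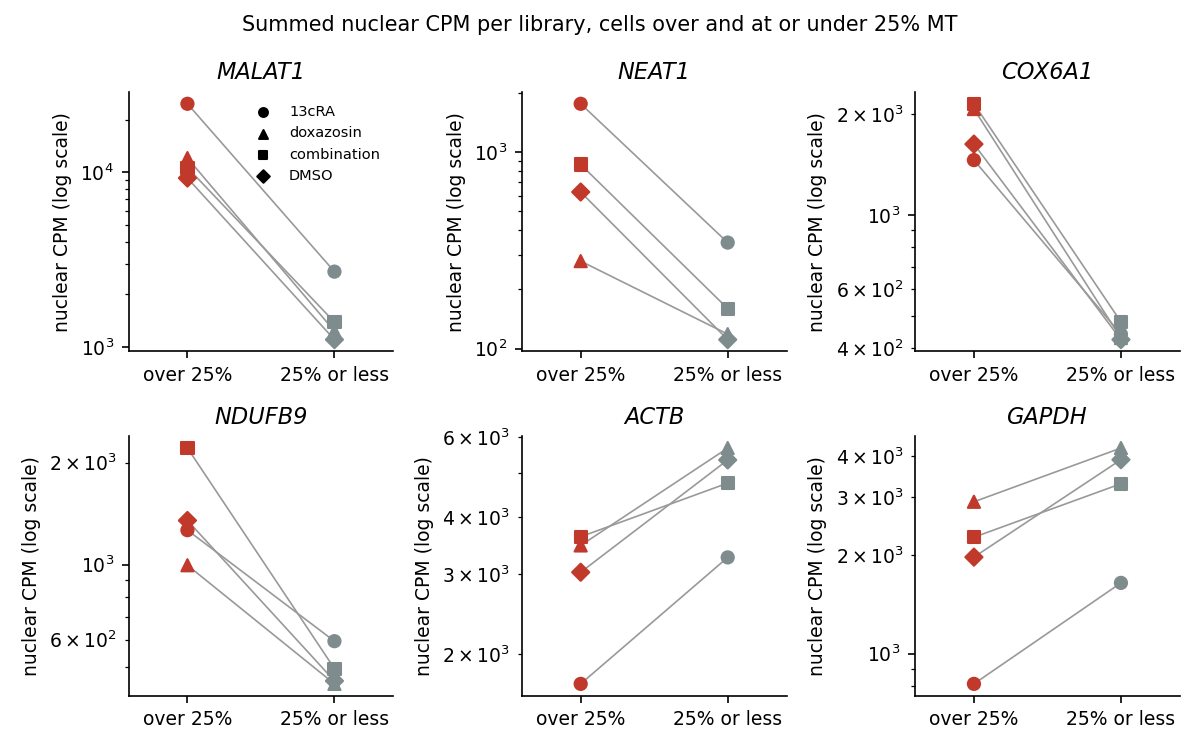
Summed CPM of 6 genes in high-MT cells (left of each panel, red) and the rest (right, grey) on log axes, with a line joining the classes of 1 library and a symbol for each library. MALAT1, NEAT1, COX6A1 and NDUFB9 are higher in high-MT cells in 4 of 4 libraries, and ACTB and GAPDH are lower in 4 of 4. The rule for naming genes required this agreement.

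COX6A1, also called higher, encodes a subunit of cytochrome c oxidase. It stood at 1457, 2069, 2145 and 1626 CPM in high-MT cells against 440, 429, 480 and 424 CPM in the rest, and rose 4.07-fold (log2 2.02 ± 0.21 SE, edgeR adjusted p = 0.000883). Single cells carried much of this. The cell with the most COX6A1 counts gave 43.9, 84.2, 16.5 and 33.6% of the gene's counts in the 4 libraries, and without it the high-MT levels were 997, 558, 2020 and 1268 CPM, still above the rest in each. Of the high-MT cells, 16 of 29, 5 of 7, 13 of 16 and 10 of 17 lay above the median of their rest. COX6A1 was counted in 89.9% of high-MT cells against 98.2% of the rest. Without the high-MT cell of the most nuclear counts in each library, the log2 value was 1.47 and the call ended (edgeR adjusted p = 0.227).

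The other 2 genes called higher, MTATP6P1 and MTND2P28, are nuclear pseudogene copies of mitochondrial genes. GENCODE 29 places them on GRCh38 chromosome 1, at 633696 to 634376 and 629640 to 630683 on the plus strand, as unprocessed pseudogenes. MTATP6P1 stood at 2763, 1777, 2128 and 1681 CPM in high-MT cells against 302, 166, 163 and 182 CPM in the rest, and MTND2P28 at 830, 900, 936 and 766 CPM against 116, 75.2, 68.4 and 73.5 CPM. Reads of the mitochondrial genes can be counted under such copies, so these calls are uncertain and move with the measure that chose the cells; with all copies left out, 2 genes were called higher, MALAT1 and COX6A1. MTCO1P12, the other copy with enough counts to be tested, lies at 631074 to 632616 on the same chromosome and was not called (log2 3.33).

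DDX1 was the gene called lower. It encodes an RNA helicase and is a neighbour of MYCN that is often amplified with it in neuroblastoma. It stood at 44667, 53213, 45976 and 49455 CPM in high-MT cells against 55625, 60094, 61664 and 59892 CPM in the rest, so the classes did not overlap. The log2 value of −0.30 ± 0.05 SE (edgeR adjusted p = 0.0397) lies above the median of all genes. It was −0.01 with TMM factors (edgeR adjusted p = 0.979) and 0.06 with DESeq2 size factors (0.903), so the direction depends on the scaling. The call also ended without each library in turn (edgeR adjusted p of 0.195 without 13cRA, 0.156 without doxazosin, 0.325 without the combination and 0.2 without DMSO).

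Next in rank among higher genes, none of them called, were NDUFB9, a complex I subunit gene, and COX5B, another cytochrome c oxidase subunit gene. NDUFB9 stood at 1263, 995, 2207 and 1349 CPM in high-MT cells against 594, 444, 493 and 453 CPM in the rest (log2 1.495, edgeR adjusted p = 0.0515). COX5B stood at 1045, 1260, 931 and 670 CPM against 362, 310, 374 and 305 CPM (log2 1.5, adjusted p = 0.0782). Neither gene's classes overlapped. With TMM factors both were called (edgeR adjusted p = 0.00886 and 0.0255). Over 20 alternatives NDUFB9 was called in 9 and COX5B in 6, with adjusted p up to 0.388 and 0.998. For COX5B the log2 value was 1.06 with a rest of like gene number, 1.10 without the deepest member of each library and 0.999 as a mean of per-cell CPM, none of them called. In the doxazosin library 1 cell gave 61.4% of the NDUFB9 counts and 66.7% of the COX5B counts.

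SNHG1 and SNHG5, host genes of small nucleolar RNAs, and AKAP12, a kinase anchoring protein gene, completed the 10 higher genes and were not called. SNHG1 stood at 2371, 630, 433 and 313 CPM in high-MT cells against 172, 133, 115 and 134 CPM in the rest (log2 2.27, edgeR adjusted p = 0.0782). In the 13cRA library 1 cell gave 80.9% of its counts, and the median high-MT cell of the combination and DMSO libraries lay below the median of the rest. SNHG5 had a log2 value of 2.18 and AKAP12 one of 2.11, both with an adjusted p of 0.129. For AKAP12 1 cell gave 93.1% of the counts with 13cRA, and without it the level was 109 CPM, below the 124 CPM of the rest. For SNHG5 1 cell gave 86.6% with the combination, and without it the level was 40.4 CPM, below the 71.1 CPM of the rest. The direction in those libraries thus rests on 1 cell each. With doxazosin 1 cell gave 79.9% of the SNHG5 counts.

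The other 9 genes named as lower were not called. ACTB, cytoplasmic actin, stood at 1721, 3471, 3627 and 3030 CPM in high-MT cells against 3267, 5686, 4760 and 5353 CPM in the rest (log2 −0.71, edgeR adjusted p = 0.0819). GAPDH, a glycolytic enzyme gene, stood at 809, 2905, 2265 and 1970 CPM against 1644, 4236, 3297 and 3903 CPM (log2 −0.77, adjusted p = 0.129). Relative to the median of all genes, ACTB lies at −0.17 and GAPDH at −0.23. With TMM factors their edgeR adjusted p was 0.467 and 0.468. In each library the high-MT value was the lower one, which the rule for naming genes required. The ranges of the classes overlap across libraries, and the 13cRA library was lowest in both.

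STMN1, a microtubule regulator, and HNRNPA2B1, an RNA-binding protein gene, were next in rank after DDX1. Both were lower in 4 of 4 libraries, which the rule for naming genes required. STMN1 averaged 6787 CPM in high-MT cells against 10769 CPM in the rest (log2 −0.68, edgeR adjusted p = 0.0782), and HNRNPA2B1 averaged 2393 against 4099 CPM without overlap of the classes (log2 −0.79, adjusted p = 0.0691). The glycolytic genes ENO1 and LDHA and the chromatin gene HMGN2 had log2 values of −1.10, −0.72 and −0.83. EEF1A1, a translation elongation factor gene, averaged 4255 CPM in high-MT cells against 5293 CPM in the rest (log2 −0.37, adjusted p = 0.682). None of these genes was called. Relative to the median of all genes, STMN1 lies at −0.13 and ENO1 at −0.55, while EEF1A1 lies above it.

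C1orf43 and PPT1 were far lower in level. C1orf43 stood at 47.8, 162, 60.3 and 30.2 CPM in high-MT cells against 307, 364, 344 and 303 CPM in the rest, and was counted in 47.8% of high-MT cells against 93.8% of the rest (log2 −2.43, edgeR adjusted p = 0.199). PPT1, a lysosomal thioesterase gene, stood at 2.99, 1.20, 29.5 and 1.28 CPM against 82.5, 126, 121 and 148 CPM and was counted in 9 of 69 high-MT cells (13.0%) against 79.4% of the rest (log2 −5.00, adjusted p = 0.265). The classes did not overlap for either gene, and neither was called.

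Markers of the line were present in high-MT cells. Of 7 neuroblastoma markers, 6 averaged at least 20 CPM in both classes, and their sum was 1816 to 3432 CPM in high-MT cells and 1722 to 2511 CPM in the rest; DBH, dopamine beta-hydroxylase, was at or near 0 in both. MYCN, the amplified oncogene of many neuroblastomas, stood at 1279, 2018, 765 and 1625 CPM in high-MT cells against 1353, 854, 908 and 851 CPM in the rest (log2 0.46, edgeR adjusted p = 0.692).

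Markers of other cell types stayed low in both classes. Summed over each list, high-MT cells and the rest had 1.79 to 12.4 against 0.954 to 12.0 CPM for 7 Schwann cell markers, 4.18 to 39.6 against 10.0 to 28.8 CPM for 7 fibroblast markers, and 1.28 to 8.40 against 0.756 to 1.54 CPM for 7 leukocyte markers. The sums were 1.28 to 42.9 against 6.66 to 27.7 CPM for 6 endothelial markers and 0 to 6.48 against 1.41 to 3.38 CPM for 7 epithelial markers. SOX10 and FOXD3, LUM, CD3E, CD68, CD79A and TYROBP, CDH5, and KRT14, KRT18 and KRT19 were at 0 in the high-MT sums of all 4 libraries. No marker of these lists averaged 20 CPM in either class.

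Among the 22 gene lists, with the pseudogene copies set apart, the lncRNAs known from the nucleus had the highest median. Of 10 such genes, all tested, 2 were called higher (MALAT1 and NEAT1) and none lower, 9 lay above 0, 5 were higher in 4 of 4 libraries (4.27% of all genes tested were), and the median log2 value was 1.49 against −0.54 for all genes. MIR17HG, the host gene of a microRNA cluster, averaged 148 CPM in high-MT cells against 18.9 CPM in the rest (log2 2.23, edgeR adjusted p = 0.682). MIAT averaged 117 against 11.9 CPM (log2 2.61, adjusted p = 0.692), with no count in high-MT cells of the doxazosin library. Both averaged under 20 CPM in the rest and were tested only because of their level in high-MT cells. Their places above 0 are therefore no support, and such genes were not left out of the counts and medians of lncRNA genes given here. Only OIP5-AS1 lay below 0, at −0.25, and it was at 0.04 with TMM factors. Over all 145 lncRNA genes tested, 24 were higher and 9 lower in 4 of 4 libraries and the median was 0.01, whereas 6112 protein-coding genes had a median of −0.56 with 234 higher and 939 lower.

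The machinery of translation and respiration lay above the median of all genes. No gene of the cytosolic ribosomal protein list was called by edgeR (9 of 77 were higher and 1 was lower at an unadjusted p under 0.05, against 1.64% and 5.34% of all genes, and DESeq2 called 5 higher, against 1.28%), its median was 0.10, and all 77 lay above the all-gene median. These are abundant genes, and among the 902 genes with a mean of at least 200 CPM the median was −0.17 against 0.11 for the 73 of the list. In CPM summed over the list, high-MT cells had 91657, 106623, 108088 and 106747 against 106751, 89501, 98529 and 89068 in the rest, so the 13cRA library went the other way. RPS21 averaged 1498 CPM in high-MT cells against 807 CPM in the rest (log2 0.89, adjusted p = 0.201). The direction flipped with a rest of like gene number, where the median of the list was −0.34 against 0.07 for all genes.

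Nuclear genes of oxidative phosphorylation had a median of 0.09 over 76 genes, 60 of them above the all-gene median. COX6A1 was the 1 gene called, 12 were higher and 7 lower in 4 of 4 libraries, against 4.27% and 15.2% of all genes. The list's sum was 27820, 35288, 36941 and 36885 CPM in high-MT cells against 27525, 28689, 29960 and 27816 CPM in the rest, higher in 4 of 4 libraries and least so with 13cRA. NDUFS1, a core subunit of complex I, lay low at 93.5 against 187 CPM on average (log2 −1.72, edgeR adjusted p = 0.692, lower in 3 of 4 libraries). Ribosomal protein genes and several subunit genes have processed pseudogenes, and reads shared with such copies may have been split, so their levels are uncertain to that extent. With a rest of like gene number the list median was −0.11, below all genes.

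The medians of other nuclear genes for mitochondria were negative. Beside −0.54 for all genes, the median was −0.41 for 72 mitochondrial ribosomal protein genes (44 of them above the all-gene median), for 27 genes that copy and express mitochondrial DNA it was −0.50 (14 above), and for 46 genes of import, proteostasis and dynamics it was −0.65 (20 above), with no gene called by edgeR or DESeq2 in any of the 3 lists and 1, 1 and 7 genes lower at an unadjusted p under 0.05 (5.34% of all genes tested were). Differences between lists were not tested. TFAM, which packages and transcribes mitochondrial DNA, stood at 49.3, 194, 32.5 and 61.8 CPM in high-MT cells against 106, 121, 97.7 and 118 CPM in the rest (log2 −0.75, adjusted p = 0.755). The mitophagy receptor gene BNIP3L averaged 30.4 CPM against 116 CPM (log2 −3.08, adjusted p = 0.690), while its relative BNIP3 averaged 95.6 against 87.8 CPM (log2 0.10, adjusted p = 0.968). PINK1, a mitophagy kinase gene, was under the level tested, at 11.1 CPM or less in each sum.

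**Figure D4:**
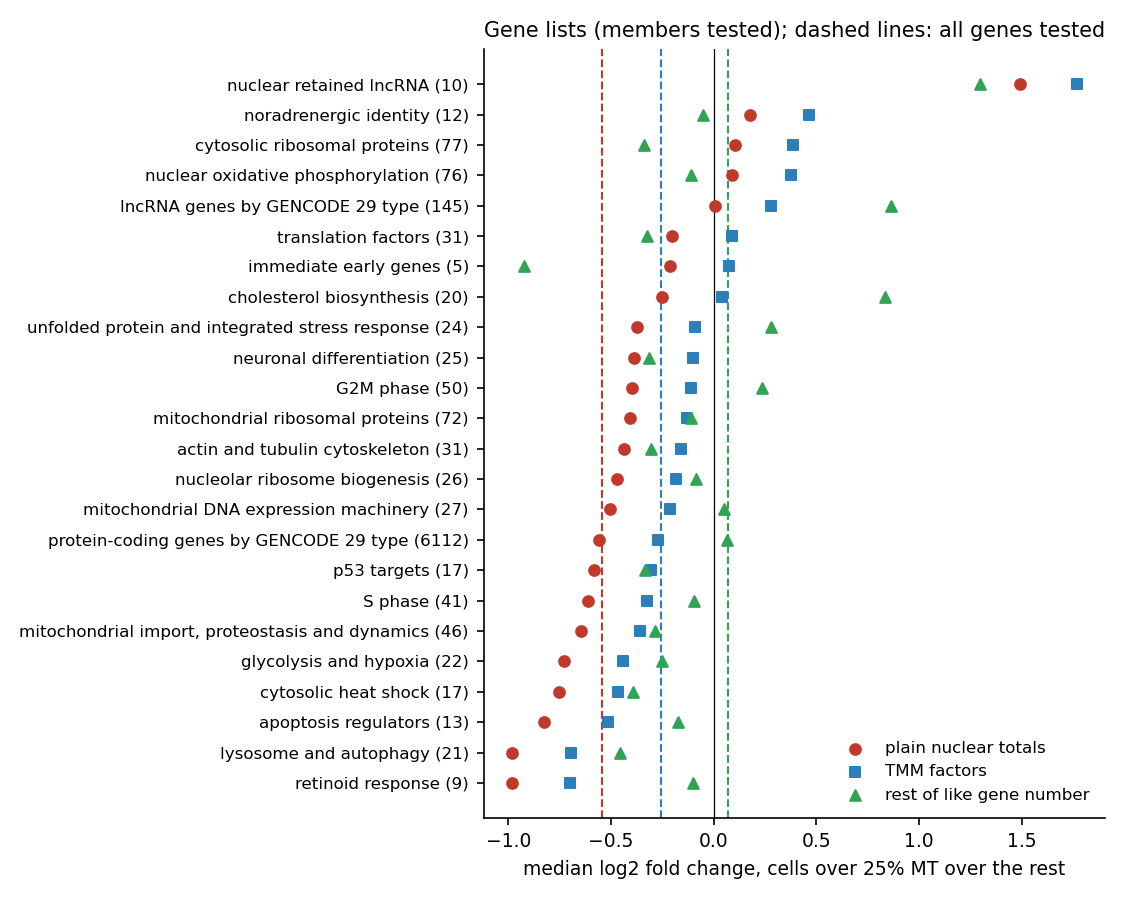
Median log2 fold change of each gene list, high-MT cells over the rest (x axis), with the number of genes tested in brackets; red circles use plain nuclear totals, blue squares TMM factors and green triangles a rest of like gene number, and dashed lines of the same colours mark all genes tested. Nuclear-retained lncRNAs lie at 1.49, above all genes under each setting, and ribosomal protein and oxidative phosphorylation genes change sides of 0 with a rest of like gene number.

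Of the 22 lists, 9 had a lower summed level in 4 of 4 libraries: glycolysis and hypoxia, cytosolic heat shock, actin and tubulin cytoskeleton, mitochondrial import, apoptosis regulators, S phase, neuronal differentiation, lysosome and autophagy, and nucleolar ribosome biogenesis. The nuclear lncRNA, oxidative phosphorylation and noradrenergic identity lists had a higher sum in 4 of 4. A sum follows the most abundant members of its list, and no other gene sets were summed for comparison. The cytoskeletal, neuronal differentiation and nucleolar lists, at −0.44, −0.39 and −0.47, had medians above the −0.54 of all genes. The 22 glycolysis and hypoxia genes summed to 8337, 13638, 14840 and 13612 CPM in high-MT cells against 13931, 21286, 18409 and 19820 CPM in the rest, and 13 of them were lower in 4 of 4 libraries (15.2% of all genes tested were). Heat shock genes summed to 12583, 18909, 15773 and 17120 CPM against 22345, 20449, 19253 and 21942 CPM, with 7 of 17 lower in 4 of 4. Actin and tubulin genes summed to 22721, 31016, 33712 and 30256 CPM against 34860, 38856, 42866 and 37295 CPM, with 9 of 31 lower and 2 higher in 4 of 4. No gene of these lists was called by edgeR or DESeq2. At an unadjusted p under 0.05, 7 of 22, 5 of 17 and 7 of 31 genes were lower (5.34% of all genes tested were), and 2 cytoskeletal genes were higher (1.64% of all genes).

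The list medians of −0.73, −0.75 and −0.44 are to be set against −0.54 for all genes. Among genes with a mean of at least 200 CPM they were −0.60 (11 genes), −0.53 (8 genes) and −0.32 (20 genes), against −0.17 for all such genes. TUBA1B, an alpha tubulin gene, averaged 437 CPM in high-MT cells against 864 CPM in the rest (log2 −1.07, edgeR adjusted p = 0.280), and AHSA1, a co-chaperone gene of HSP90, averaged 125 against 363 CPM (log2 −1.90, adjusted p = 0.441). The cytoskeletal median thus lay above that of all genes on the plain scale. The medians were −0.44, −0.47 and −0.16 with TMM factors and −0.38, −0.39 and −0.09 with DESeq2 size factors. With a rest of like gene number the 3 lists lay below all genes, at −0.25, −0.39 and −0.30 against 0.07.

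Genes of cell death and stress gave no call in edgeR. The 13 apoptosis regulators tested had a median of −0.83 and none above 0, the 17 p53 targets a median of −0.58, and the 24 genes of the unfolded protein and integrated stress responses a median of −0.37. All genes tested had a median of −0.54, with 26.8% above 0. In the 3 lists, 5, 7 and 14 genes lay above that all-gene median. CDKN1A, the p53 target that encodes the cell cycle inhibitor p21, stood at 3.49, 2.40, 14 and 66.5 CPM against 57.8, 97.3, 68.3 and 82.0 CPM (log2 −2.92, edgeR adjusted p = 0.682). BAX, a pore-forming death effector gene, was counted in 24.6% of high-MT cells against 57.1% of the rest, at 35.4, 0, 64.7 and 14.9 CPM against 28.0, 20.6, 20.6 and 25.9 CPM.

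DDIT3, the stress gene for CHOP, had 84.7 CPM in high-MT cells with 13cRA (29.98 CPM without the 1 cell that gave 66.5% of its counts), was listed with no counts in the doxazosin and combination libraries and had 7.24 CPM with DMSO, against 12.6 to 32.6 CPM in the rest. At an unadjusted edgeR p under 0.05, 1 of 13 apoptosis regulators (BIRC5) and 1 of 17 p53 targets (CDKN1A) were lower. So were 2 of 24 stress response genes (SHMT2 and MTHFD2), while ZMAT3 and HSP90B1 were higher. Of all genes tested, 5.34% were lower and 1.64% higher at that level. DESeq2 called ZMAT3 alone in these lists, which was higher in 3 of 4 libraries, and it called 1.28% of all genes tested higher. Among 5 immediate early genes tested the median was −0.21, with JUN averaging 39.6 CPM against 22 CPM and FOS 30.1 against 42.0 CPM. Levels this low rest on few cells, since FOS was counted in 10.1% of high-MT cells.

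No gene of the remaining lists was called by edgeR. Medians were −0.61 for 41 S phase genes, −0.40 for 50 G2M phase genes, −0.47 for 26 nucleolar ribosome biogenesis genes, −0.20 for 31 translation factor genes, −0.25 for 20 cholesterol biosynthesis genes, −0.39 for 25 neuronal differentiation genes −0.98 for 21 lysosome and autophagy genes, −0.98 for the 9 retinoid genes tested and 0.18 for 12 noradrenergic identity genes. At an unadjusted p under 0.05 these 9 lists held 1 higher and 19 lower genes among 235 members tested, beside 1.64% and 5.34% of all genes, and DESeq2 called 1 G2M gene higher. BECN1, an autophagy initiation gene, averaged 23.9 CPM in high-MT cells against 116 CPM in the rest (log2 −2.41, adjusted p = 0.603), and MKI67, a proliferation marker gene, averaged 72.9 against 131 CPM (log2 −1.85, adjusted p = 0.692).

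A graded change was looked for in cells that the rule did not take. The rest was split into cells with 15 to 25% and cells with under 15% (99 against 219 cells with 13cRA, 20 against 219 with doxazosin, 15 against 272 with the combination and 16 against 337 with DMSO). No gene was called by edgeR among 6400 tested (0% in each direction, with 193 higher and 452 lower at an unadjusted p under 0.05; TMM factors also gave none). MALAT1 had a log2 value of 1.28 (adjusted p = 0.137), NEAT1 one of 0.98 (adjusted p = 0.223) and COX6A1 one of 0.30 (adjusted p = 0.557), and the median of all genes was −0.10. In cells of 15 to 25% MALAT1 stood at 3318 CPM with 13cRA, 2287 CPM with doxazosin, 2793 CPM with the combination and 5729 CPM with DMSO, each below the level of the high-MT cells and above that of cells between 10 and 15%, at 2327, 990, 1285 and 913 CPM. Below that the order did not go on: cells of 5 to 10% stood at 2651, 1218, 1338 and 978 CPM, above the cells of 10 to 15% in 4 of 4 libraries, and the 3, 1, 4 and 2 cells under 5% stood at 2994, 2839, 2142 and 698 CPM. MALAT1 in the 13cRA library stood at 33415 CPM in cells over 50% and 9305 CPM in cells of 25 to 50%, whereas in the combination library they stood at 10508 and 11061 CPM.

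Of 15 retinoid genes that averaged at least 5 CPM, 10 had both libraries with 13cRA above both libraries without it in high-MT cells. In the rest 14 of 15 did. This order was not counted over all genes tested, so neither number can be set against a share. Retinoic acid acts through nuclear receptors that bind the regulatory regions of target genes, and the list of retinoid genes had been drawn up with earlier results of these libraries known. ENPP2, which encodes autotaxin, stood in high-MT cells at 1006 CPM with 13cRA (exact 95% Poisson interval 962 to 1050), 1.20 CPM with doxazosin, 1427 CPM with the combination and 1.28 CPM with DMSO, and in the rest at 525, 1.27, 441 and 1.84 CPM. In both classes the libraries with 13cRA were high and the libraries without it low for ENPP2. The retinoid receptor genes RARA and RXRA were among the 5 genes that did not follow: RARA stood at 19.4, 19.2, 0.895 and 0.426 CPM in high-MT cells and at 16.02, 5.73, 8.89 and 7.005 CPM in the rest, so its level with doxazosin was close to that with 13cRA. RXRA stood at 91.2, 109, 0 and 3.41 CPM in high-MT cells, highest with doxazosin, and at 24.2, 9.92, 20.4 and 16.1 CPM in the rest. RXRB, STRA6 and BMF were the other genes that did not follow in high-MT cells, and RXRB was the exception in the rest. The 5 genes plotted are among those that did.

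**Figure D5:**
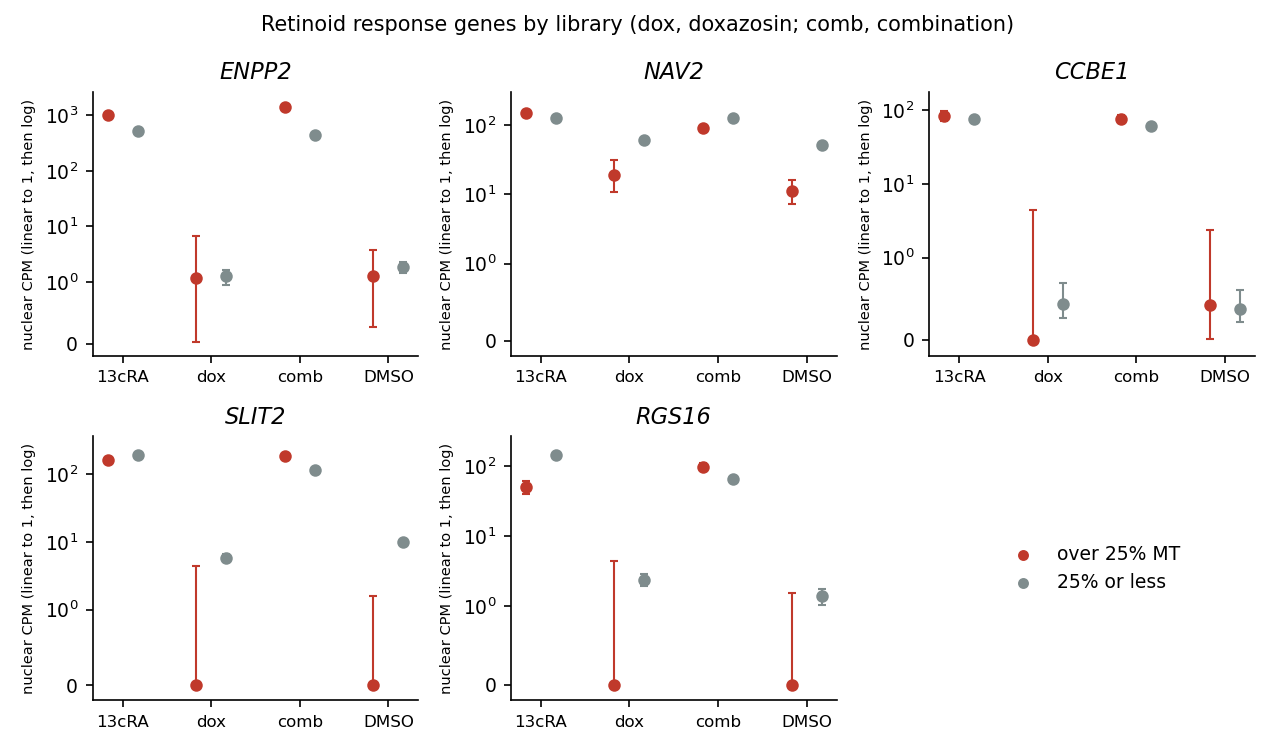
Summed CPM of 5 retinoid response genes by library (y axis linear up to 1 and logarithmic above), high-MT cells in red left of the rest in grey; bars are exact 95% Poisson intervals of the counts and cover counting error only. Both libraries with 13cRA lie above both libraries without it for each of the 5 genes in either class.

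The other 4 genes plotted had the same order. CCBE1, an extracellular matrix protein gene, stood at 85.2 CPM with 13cRA, at no count with doxazosin (3 counts would be 3.60 CPM), at 77.6 CPM with the combination and at 0.426 CPM with DMSO in high-MT cells, and at 77.1, 0.439, 61.3 and 0.372 CPM in the rest. SLIT2, an axon guidance gene, and RGS16, which shortens signals from G protein-coupled receptors, had no count in high-MT cells of the doxazosin and DMSO libraries, and stood at 162 and 49.8 CPM with 13cRA and at 184 and 98.2 CPM with the combination. NAV2, a neuron navigator gene induced by retinoic acid, stood at 150, 19.2, 90.4 and 11.1 CPM in high-MT cells and at 127, 60.8, 128 and 51.6 CPM in the rest. For ENPP2, 62.1% of high-MT cells with 13cRA and 75% with the combination had a count, against 68.9 and 83.6% of the rest. Without 13cRA, 1 of 7 high-MT cells with doxazosin and 2 of 17 with DMSO had one.

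Over the 15 genes of the list that averaged at least 5 CPM, 14 were higher with 13cRA than with DMSO in high-MT cells and none was lower. The median log2 difference was 3.84 against −0.02 for all genes tested. In the rest 14 were higher, with a median of 1.28. The list was drawn up with earlier results of these libraries known, so these counts and medians describe the listed genes and are no support for a response. The 14 in high-MT cells include CRABP2 at 0.07 and STRA6 at 0.14. With the combination over DMSO, 12 of 15 were higher in high-MT cells (median 2.75) and 15 of 15 in the rest (median 1.41). With doxazosin over DMSO, 4 were higher and 7 lower in high-MT cells (median 0.00, against −0.40 for all genes tested), and 8 were higher and 7 lower in the rest. Of all genes tested, 49.6, 42.1 and 51.1% were higher in high-MT cells with 13cRA, doxazosin and the combination over DMSO. In the rest these shares were 49.4, 48.2 and 47.4%. The 3 differences share the DMSO library. Gene by gene, 0 to 6 of the 17 high-MT cells of the DMSO library had a count, so the differences against DMSO rest on few cells, and whether they differ from those in the rest was not tested. The retinoic acid receptor gene RARB stood at 25.9, 3.60, 5.97 and 0.426 CPM in high-MT cells against 27.3, 3.68, 30.8 and 1.42 CPM in the rest, so that its level with the combination was lower in high-MT cells, where 3 of 16 cells had a count.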

How the data were processed

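Raw counts per gene and cell were deposited by the authors as whole numbers in 1 table of 1287 cells and 60651 gene IDs. Per the submitters' processing notes, the tools named were Seurat (version 4.3.0), STAR (version 2.7.8a), fastp (version 0.23.3), bcl2fastq and featureCounts, in no order, with builds GRCh38.p13 and GRCh37 named without a role. The assay has no molecular identifiers, so counts are reads and not molecules, and intervals cover counting error only. No cell name occurs in more than 1 library. Doublets were not called: imaging had selected wells with single cells, per the labels' protocols. Over 9000 genes were detected in 1 high-MT cell, of the 13cRA library (12377 genes), and in 4 cells of the rest. Without these cells edgeR called 6 genes higher and 1 lower. The log2 value of AKAP12 was then 1.27, against 2.11 with them, and that of SNHG1 was 1.75, against 2.27.

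Cells with at least 500 detected genes were classed at 25% of counts in the 37 MT- genes. Nuclear counts were summed per library and class and tested with edgeR 4.0.16 in R 4.3.3 (quasi-likelihood, library as block, plain nuclear totals, mean of at least 20 CPM, Benjamini-Hochberg). DESeq2 1.42.0 and limma 3.58.1 served alternatives, and scipy 1.17.1 the exact intervals. Per-cell measures were tested by an exact sign-flip over 4 libraries. The edgeR step was tested on simulated data. Each treatment is 1 library, so p-values measure the spread between these libraries. Named genes were those called, then the lowest p-values up to 10 in each direction with 4 of 4 libraries agreeing in sign, up to 4 members of each list, and a fixed set. The members and lists were chosen with earlier results of these data known.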

Additional observations from a re-analysis of the deposited data

Results flagged for a closer look

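For 3 genes of the fixed set, every library with 13cRA moved one way and every library without it the other way in the contrast of high-MT cells with the rest. Such splits were not counted over all genes tested, so the number cannot be set against a share. None of these differences was tested. MYCN had log2 differences of −0.08 with 13cRA and −0.25 with the combination, against 1.24 with doxazosin and 0.93 with DMSO, so the libraries with 13cRA lay at −1.25 relative to those without it. For ENPP2 the value was 1.496, with 3 or fewer counts in high-MT cells of each library without 13cRA. For BAX the values were 0.33 with 13cRA and 1.61 with the combination, against −4.43 with doxazosin, where high-MT cells had no count, and −0.76 with DMSO, a difference of 3.56. In the 13cRA library 1 cell gave 73.2% of the BAX counts, and without it high-MT cells stood at 9.99 CPM against 28.0 CPM in the rest, so the direction there rests on that cell.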

How the results depend on the processing

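The 5 genes called higher became 9 with TMM factors, 11 with DESeq2 size factors, 11 with no filter on low counts, 81 with DESeq2's Wald test, 11 with limma on mean per-cell CPM, 11 at over 20%, 8 at over 30%, and 2 without pseudogene copies; leaving out each library gave 4 to 5. The 1 gene called lower became 0 with TMM factors, DESeq2 size factors, a mean of at least 50 CPM, no pseudogene copies, a rest of like gene number or without the deepest member of each library (edgeR, with 142, 121, 214, 337, 107 and 330 genes lower at an unadjusted p under 0.05). It became 10 with no filter, 35 with the Wald test, 9 with limma, 6 at over 20%, 3 at over 30% and 2 with the mitochondrial mRNAs only; leaving out each library gave 0 to 1 (209 to 290 at an unadjusted p under 0.05), and the 1 without DMSO is STMN1 (adjusted p = 0.0113), not DDX1. DDX1 turned to 0.062 with DESeq2 size factors and in the Wald test and to 0.018 with a rest of like gene number. BNIP3 was −0.022 at over 20% and ran from −0.034 to 0.31 with each library left out, and BAX from −1.46 to 0.40. The 13cRA share was 14.7% at over 20% and 4.035% with the mRNAs only. CRABP2 with 13cRA over DMSO was −1.18 as a mean of per-cell CPM. The causes were not tested. The settings on pseudogene copies, like gene number, deepest members and thinning to 20000 were chosen after seeing the data. The library stands as the block of the main fit, and no other paired analysis was possible because each treatment has 1 library. The high-MT sums rest on 7 to 29 cells a library, which limits genes of low level.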
